A study of Mus musculus with 18 samples.

Results

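CD25, the alpha chain of the IL-2 receptor encoded by *Il2ra*, was deleted in Foxp3+ regulatory T cells (Tregs) of the thymus and of the spleen, and the question here is where the transcriptional effect of that deletion differed between both organs and where it was the same. For every gene, the log2 fold change of CD25 KO over WT was taken in each tissue, and the thymic value was subtracted from the splenic one. All 18 samples of the series, 1 library per mouse, entered this comparison. Of 50600 genes in the count table, 18686 had enough reads to be tested. Genes are described by function, first those with the largest differences and then those with equal effects.

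The thymic KO group held 5 “cured” CD25 cKO mice (CD25 flox/Foxp3-YFP/Cre), which carried floxed *Il2ra* and a Cre recombinase expressed from the *Foxp3* locus, and which had received WT splenocytes intravenously as newborns. The thymic WT group held 5 Foxp3/RFP reporter mice. Both thymic groups were 3–4 weeks of age. The splenic KO group held 4 CD25 flox/Foxp3eGFP-Cre-ERT2/R26Y mice, in which tamoxifen, given at 7–10 weeks of age, activates the Cre in cells that express Foxp3 and switches on YFP. The splenic WT group held 4 reporter controls, also treated with tamoxifen, and spleens were taken 10–14 days after induction. All mice were on the C57BL/6 background. In the thymus *Il2ra* was thus deleted once a cell expressed Foxp3, whereas in the spleen it was deleted from Tregs that had developed with it. Tissue, the date in the library names, mouse model, age and tamoxifen changed together, so a tissue difference cannot be told apart from a difference in any of these. Sex was also unbalanced, with only females among splenic and both sexes among thymic mice, as judged by *Xist* below. Thymic WT and KO mice also carried different *Foxp3* reporter alleles, and only the KO mice are described as carrying Cre and receiving WT splenocytes. No such transfer is described for splenic mice of either genotype. The thymic effect, and with it each tissue difference, cannot be told apart from an effect of these.

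As background, IL-2 binds a receptor of CD25, CD122 (*Il2rb*) and the common gamma chain, and signals through JAK1 and JAK3 to STAT5. In the thymus this signal helps Treg precursors acquire Foxp3 and mature, and in peripheral organs it maintains Tregs, above all resting central Tregs that carry CD62L and CCR7. Effector Tregs, which carry inhibitory receptors, chemokine receptors for tissues and suppressive cytokines, rely on IL-2 less and on antigen and tissue cytokines more.

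Total counts were 17239774 to 23993674 per thymic and 25258341 to 32639570 per splenic library, and levels are given below as TMM-scaled CPM, the reads of a gene relative to the effective library size. *Il2ra*, the targeted gene, was measured over the whole gene, so that reads from exons outside the deleted one are included. Its level was 524, 544, 652, 664 and 682 CPM in thymic WT mice and 95.9, 96.1, 105, 234 and 280 CPM in thymic KO mice. In splenic WT mice it was 488, 532, 537 and 539 CPM, and in splenic KO mice 168, 179, 191 and 208 CPM. WT and KO mice did not overlap in either tissue. The log2 fold change was -1.92 ± 0.23 (SE) in thymic and -1.49 ± 0.25 in splenic Tregs, and the difference of 0.43 ± 0.34 had an FDR of 0.408, with a 95% interval of -0.29 to 1.14. Thymic KO mice Y2 and Y4 had the highest *Il2ra* levels of their group, and they also stood apart in DNA replication genes, with a summed level of 2146 and 2050 CPM against 1037 to 1166 CPM in the other 3. Leaving these mice out changed some calls, and the larger changes are stated beside the genes and lists. The *Il2ra* difference without them was 1.14 (FDR 1.7e-06). By the level of *Xist*, 2 of 5 thymic WT mice, 1 of 5 thymic KO mice and all 8 splenic mice were female.

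The Treg label was borne out by *Foxp3*, *Ikzf2*, *Ctla4* and *Tnfrsf18* in every library. Markers of double positive thymocytes summed to 45.6 to 199 CPM in thymic WT, 56.9 to 123 CPM in thymic KO and 8.28 to 11.5 CPM in splenic libraries. *Rag1*, which recombines T cell receptor genes in these thymocytes, was listed at 0 in every splenic library. Markers of B cells summed to 139 to 197 CPM in thymic WT, 87 to 125.5 CPM in thymic KO, 498 to 595 CPM in splenic WT and 666 to 796 CPM in splenic KO libraries. Most of this sum was *Ighm*, the immunoglobulin mu heavy chain, while *Ms4a1*, which encodes a defining surface antigen of B cells, reached at most 0.469 CPM. Other B cell markers were mixed in the spleen. *Cd74* was at 44.5 to 56.7 CPM in WT and 66.2 to 74.6 CPM in KO libraries, and *Pax5* at 1.02 to 2.14 and 2.72 to 3.54 CPM. *Cd79b* was at 13 to 14.5 and 12.1 to 16.1 CPM, and *Cd79a* at 4.84 to 6.85 and 3.88 to 4.3 CPM. Since these are bulk samples, fewer cells of a type and less RNA per cell cannot be told apart.

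The effect of CD25 deletion differed between thymus and spleen for 1305 genes at FDR < 0.01, which is 6.98% of the genes tested. The splenic effect was above the thymic one for 840 of them (4.5% of genes tested) and below it for 465 (2.49%). Without mouse C126 the count was 817, 535 above and 282 below, and without B17 307 were below. With upper-quartile scaling in place of TMM, which lowered the median difference of all genes to -0.08, the split was 616 above and 669 below. The difference was at least 2-fold for 523 genes, 368 of them with the higher effect in the spleen. Among the 840 genes, 780 had a lower fitted value in thymic KO and a higher one in splenic KO mice than in WT mice, and among the 465 genes 402 had the reverse. Fitted changes were larger in the thymus for 827 genes and larger in the spleen for 478.

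Within each tissue, 1047 genes passed the test in the thymus (6.16% of 16986) and 1651 in the spleen (9.45% of 17463). Of the 18686 genes tested for the difference, 508 fell and 539 rose in the thymus, and 620 fell and 1030 rose in the spleen. The thymic count fell to between 371 and 428 when Y3, R2, R3, Y1 or R5 was left out singly, and the splenic one to 1099 without B18. Sorted by these calls, the 1305 genes comprised 98 that changed in both tissues in opposite directions, 12 that changed in the same direction by unequal amounts, 367 that passed in the thymus alone, 466 that passed in the spleen alone and 362 that passed in neither. Of the 367, 8 were not tested in the spleen, and of the 466, 37 were not tested in the thymus, so these could not pass there. Genes called in both tissues numbered 196, of which 98 had the same direction and 98 the opposite one. Of the 98 with the same direction, CD25 KO Tregs were lower for 82 and higher for 16. Across all genes tested, the Spearman correlation between the thymic and splenic log2 fold changes was -0.046, which is a description across genes that are not independent of each other.

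**Figure D1:**
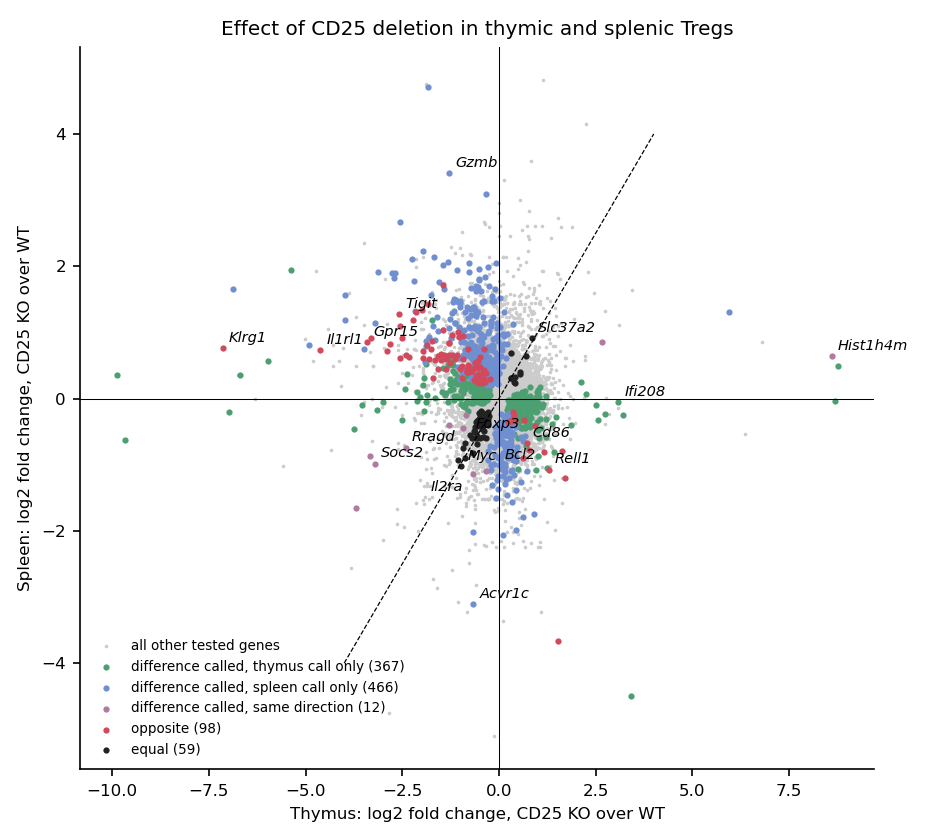
Log2 fold change of CD25 KO over WT in the thymus (x axis) against that in the spleen (y axis), 1 point per gene, with classes of genes in colour. The 98 genes with opposite effects lie mostly to the upper left (80 lower in thymic and higher in splenic KO Tregs), and the 59 genes with equal effects lie along the diagonal, 48 of them below 0 on both axes.

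Opposite effects were found for 98 genes (0.524% of those tested), of which 80 (0.428%) fell in thymic and rose in splenic CD25 KO Tregs and 18 did the reverse. When R2, R3, R5, Y1 or Y3 was left out singly, 48 to 61 genes met this definition. Without R1 the 80 became 52, and without B17 the 18 became 11. Of 52 effector Treg genes 15 were among the 80. In 79 of the 80, WT and KO mice did not overlap in either tissue, compared with 3.95% of all genes. The 80 were chosen by a call in each tissue, which favors such separation, so this is a description and not support. *Tigit* (chr16:43648867-43664146), an inhibitory receptor of effector Tregs, stood at 5.88, 6.53, 7.48, 8.19 and 9.65 CPM in thymic WT mice and at 0.578, 1.14, 1.2, 1.57 and 1.62 CPM in thymic KO mice. Splenic Tregs had it at 63.3, 67.4, 73.6 and 90.2 CPM in WT mice and at 164, 165, 175 and 210 CPM in KO mice. Each KO mouse of the thymus was below, and each KO mouse of the spleen above, every WT mouse of its tissue. The log2 fold change was -2.59 ± 0.21 in thymic and 1.28 ± 0.13 in splenic Tregs, a difference of 3.86 ± 0.25 (FDR 6.13e-09).

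*Il1rl1* (chr1:40429570-40465415) encodes ST2, the IL-33 receptor of tissue Tregs. Its level was 5.39, 6.12, 7.22, 7.22 and 14.7 CPM in thymic WT mice and 0, 0.0545, 0.2, 0.599 and 0.676 CPM in thymic KO mice. In splenic WT mice it was 51.8, 52.7, 54.2 and 56.2 CPM and in splenic KO mice 70.7, 90, 97.5 and 97.5 CPM. The groups did not overlap in either tissue, and the highest thymic KO values were again those of Y2 and Y4. The log2 fold changes of -4.62 ± 0.54 and 0.73 ± 0.22 differed by 5.35 ± 0.58 (FDR 4.04e-07), or by 7.19 without these mice.

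*Klrg1*, a lectin-like receptor of terminally differentiated effector cells, was at 0.808 to 4.16 CPM in thymic WT mice. In thymic KO mice 1 read was found in Y2 (0.0461 CPM) and none in the other 4, so the level was at least 14.3-fold lower. In the spleen the WT mice had 16.4 to 19.7 CPM and the KO mice 29.1 to 33.5 CPM, a log2 fold change of 0.76 ± 0.21. *Gpr15*, a homing receptor for the large intestine, had 1.08 to 1.99 CPM in thymic WT and 0 to 0.218 CPM in thymic KO mice. Its splenic levels were 9.43 to 13.1 CPM in WT and 18.1 to 22.1 CPM in KO mice. Both genes therefore separated the genotypes completely in both organs, and the *Gpr15* effects differed by 4.26 ± 0.45 (FDR 3.81e-07).

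*Irf4*, a transcription factor that directs effector Treg differentiation, was also in this class. It was at 101, 102, 102, 104 and 112 CPM in thymic WT mice and at 43, 47.3, 50.9, 75.2 and 76.9 CPM in thymic KO mice. Splenic WT mice had 78.2, 84.2, 88.7 and 91.3 CPM and splenic KO mice 99.6, 106, 107 and 137 CPM. The 2 highest thymic KO values were those of Y2 and Y4, and they still lay below all WT values. The effects of -0.83 ± 0.13 and 0.40 ± 0.14 differed by 1.22 ± 0.19 (FDR 0.000297), and by 1.54 without Y2 and Y4. *Prdm1*, which encodes the transcription factor Blimp-1, had effects of -1.06 and 1.00, and *Runx3*, a factor of cytotoxic lineages, of -1.71 and 0.30.

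Surface and secreted molecules with opposite effects included *Cd80*, a ligand of CTLA-4 and CD28, with log2 fold changes of -2.55 in thymic and 1.10 in splenic Tregs. The costimulatory receptor *Icos* had -0.40 and 0.75, and *Ccr4*, a chemokine receptor for skin and other tissues, had -1.57 and 0.44. The chemokine *Ccl5* had -2.22 ± 0.32 and 1.19 ± 0.25. Its mean fell from 6.22 ± 1.24 CPM (SD, n = 5) to 1.29 ± 0.99 CPM (n = 5) in the thymus and rose from 16.3 ± 1.57 CPM (n = 4) to 37.3 ± 8.36 CPM (n = 4) in the spleen. *Fgl2*, a secreted suppressive protein, had -1.98 and 1.33, and *S100a4*, a calcium-binding protein of activated cells, had -2.88 and 0.73. *Ighm* was also among the 80 genes, with -0.83 and 0.44, and so was *Cd3e*, a chain of the T cell receptor complex, with a difference of 0.69 (FDR 9.91e-06). *Cd4* differed by 0.58 (FDR 0.000173). The summed B cell markers given above, most of which was *Ighm*, thus moved in the same directions as the effector genes. *Cd79a* was instead lower in splenic KO mice, and the part of these markers in the result was not tested.

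**Figure D2:**
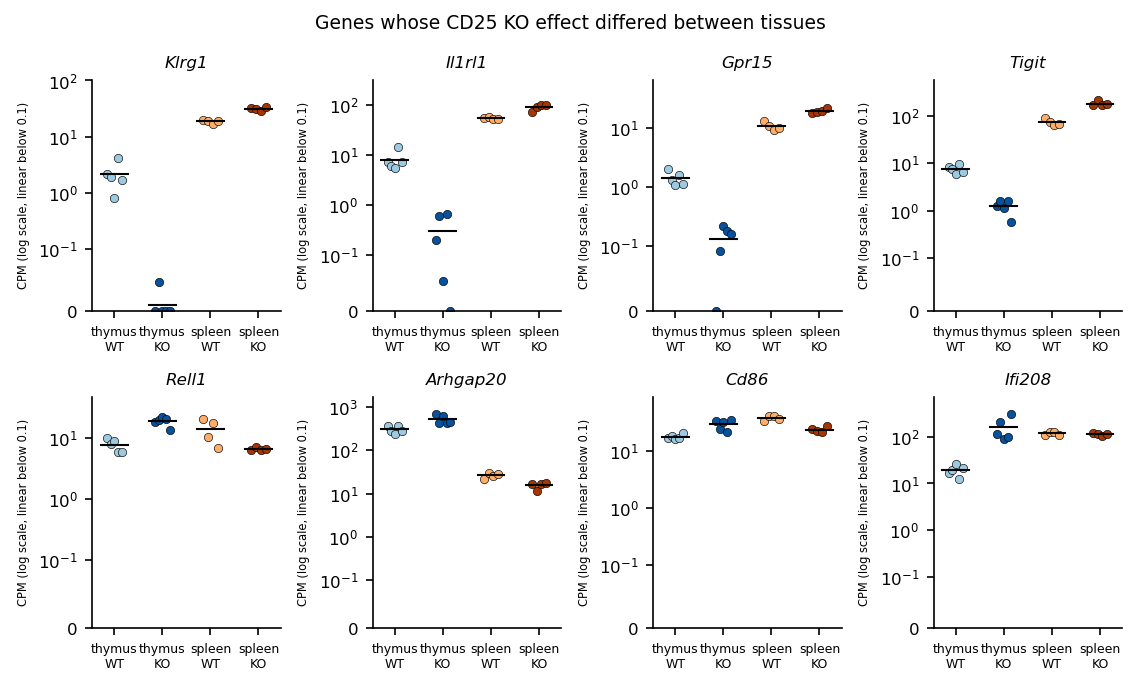
CPM per mouse on a symmetric log axis for genes whose CD25 KO effect differed between tissues, with each group's mean as a bar. For *Tigit*, thymic KO mice (0.578 to 1.62 CPM) lie below thymic WT mice and splenic KO mice (164 to 210 CPM) above splenic WT mice, while for *Cd86* the order is reversed in each tissue.

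Of 52 effector Treg genes, all tested, 38 had a higher effect in the spleen and none a lower one (73.1%, against 6.98% of all genes). Their median log2 fold change was -0.62 in thymic and 0.75 in splenic Tregs, with a median difference of 1.41, compared with -0.02, -0.0093 and -0.0065 over all genes tested. Within tissues, 19 fell in the thymus and 39 rose in the spleen, against 508 and 1030 of all 18686 genes. Both held for 15, against 80 of all genes. The median difference was 1.66 without Y2 and Y4, with 41 called. The summed level of the list was 2057 to 2427 CPM in thymic WT mice and 1449 to 1937 CPM in thymic KO mice, with Y2 and Y4 at 1937 and 1880 CPM. The study examined many of these genes in these libraries, so the list is not independent evidence of its direction.

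Other genes of this program passed the test in the spleen but not in the thymus. *Gzmb*, the cytotoxic protease granzyme B, was at 0.94, 0.969, 1.15, 1.28 and 1.3 CPM in thymic WT mice and at 0.15, 0.184, 0.263, 0.495 and 1.253 CPM in thymic KO mice. In the spleen it was at 3.11, 4.41, 4.63 and 5.81 CPM in WT mice and at 38, 44.5, 50.1 and 57.6 CPM in KO mice. The splenic groups were far apart and the thymic groups overlapped through mouse Y3. The splenic log2 fold change was 3.40 ± 0.23, the thymic one -1.30 ± 0.40 (FDR 0.057 in the thymus alone), and the difference 4.70 ± 0.46 (FDR 9.31e-07).

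*Il10*, an anti-inflammatory cytokine of effector Tregs, was at 2.42, 2.61, 2.68 and 4.88 CPM in splenic WT mice and at 9.79, 11, 14.4 and 15.8 CPM in splenic KO mice. In all 10 thymic mice it was at most 0.686 CPM, too low for a test within the thymus, and the difference of 3.46 ± 0.57 (FDR 0.000223) rests on few thymic reads. *Ccr2*, a chemokine receptor that guides cells into inflamed tissue, had a splenic effect of 1.29 ± 0.25 and a tissue difference of 2.51 ± 0.37. *Ccr3*, the eotaxin receptor, was listed at 0 in all thymic KO mice, at least 4.14-fold below the thymic WT mean of 0.616 CPM. Thymic WT mice had 0.0898 to 0.96 CPM, and this gene was also too low for a test within the thymus. In the spleen *Ccr3* rose from 2.09 ± 0.26 to 6.58 ± 0.85 CPM. Of 34 tested genes of chemokine receptors and homing, 11 had the higher effect in the spleen, and 1, *Ccr7*, the lower one. Together they were 35.3% of the list, against 6.98% of all genes.

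Of 30 genes of cell death and survival, 6 had the higher effect in the spleen and 2 the lower (26.7%, against 6.98% of all genes). *Casp1*, the protease that activates IL-1 family cytokines, had a splenic effect of 0.77 ± 0.13 and a difference of 1.43 ± 0.27 (FDR 0.00114). *Casp4*, an intracellular sensor of lipopolysaccharide, had a difference of 1.41 ± 0.24. In thymic mice *Casp1* was at 0.5 to 1.7 CPM and *Casp4* at 0.65 to 2.33 CPM. The thymic genotypes overlapped for both, and the differences rest in part on few thymic reads. *Pmaip1*, which encodes the proapoptotic BH3-only protein NOXA, rose by 0.81 ± 0.16 in the spleen and had -0.18 ± 0.15 in the thymus. *Bcl2*, the antiapoptotic protein that IL-2 is known to sustain, went the other way. Its level was 347, 353, 372, 378 and 390 CPM in thymic WT mice and 331, 346, 355, 375 and 428 CPM in thymic KO mice. Splenic levels were 326, 353, 363 and 369 CPM in WT mice and 162, 171, 182 and 187 CPM in KO mice. The thymic groups overlapped throughout and the splenic groups were far apart, giving a splenic effect of -1.01 ± 0.07 and a difference of -1.0 ± 0.10 (FDR 1.38e-06).

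Among the 1305 genes, the 367 that passed in the thymus alone comprised 182 lower and 185 higher in CD25 KO Tregs. Of the 466 that passed in the spleen alone 337 were higher and 129 lower. *Itgae* (CD103), the integrin that binds E-cadherin on epithelium, fell from 45.3 ± 5.48 CPM (SD, n = 5) to 17.2 ± 8.02 CPM (n = 5) in the thymus, and had 107 to 151 CPM in splenic WT mice against 134 ± 2.51 CPM (n = 4) in splenic KO mice. The difference of the effects was 1.45 ± 0.29 (FDR 0.00235). *Capg*, an actin-capping protein of Tregs, differed by 1.02 ± 0.22 and *Tnfrsf4* (OX40), a costimulatory receptor, by 0.83 ± 0.12, and both passed in the thymus alone. *Socs3*, an inhibitor of JAK-STAT signaling, fell by 0.82 ± 0.08 on the log2 scale in the thymus and had -0.04 ± 0.08 in the spleen. Other genes with large thymic decreases were *Asb2*, a ubiquitin ligase subunit, at -2.39 ± 0.43, *B4galt4*, a galactosyltransferase, at -2.12 ± 0.20, and *Tent5a*, a poly(A) polymerase, at -1.95 ± 0.19. Of 16 Treg identity genes 7 had the higher effect in the spleen, namely *Itgae*, *Capg*, *Nrp1*, *Tnfrsf4*, *Ctla4*, *Izumo1r* and *Tnfrsf18*, and 1, *Bach2*, had the lower. The share called was 50%, against 6.98% of all genes, and the 7 became 4 when Y3, B18 or C126 was left out. The list's median was -0.52 in thymic and 0.04 in splenic Tregs. Its median difference of 0.28 became 0.46 without Y2 and Y4, with 7 genes higher and 2 lower in the spleen.

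The genes whose effect was lower in the spleen than in the thymus included *Ifi208*, an interferon-inducible PYHIN family member. It was at 12.4, 17.1, 19.1, 21.4 and 26 CPM in thymic WT mice and at 92, 99.5, 113, 206 and 303 CPM in thymic KO mice. In the spleen it was at 108, 112, 127.6 and 127.8 CPM in WT mice and at 105, 117, 118 and 119 CPM in KO mice. Thymic KO mice thus lay near or above the splenic level, whereas both splenic groups overlapped. The effects were 3.08 ± 0.26 and -0.05 ± 0.27, with a difference of -3.13 ± 0.38 (FDR 1.96e-05). Of 33 type I interferon stimulated genes, 1 had the higher effect in the spleen (*Oas3*) and 1 the lower (*Ifit2*). These are 6.06% of the list, close to the 6.98% of all genes. Small effects in both tissues were found for 19 of the 33, against 37% of all genes.

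The 18 genes that rose in the thymus and fell in the spleen included *Cd86*, the costimulatory ligand that CTLA-4 removes from antigen-presenting cells. It was at 16.3, 16.8, 17, 18.5 and 20.7 CPM in thymic WT mice and at 21.3, 24.2, 32.1, 33.3 and 35.5 CPM in thymic KO mice. Splenic WT mice had 34.1, 36, 40.5 and 42 CPM and splenic KO mice 21.5, 22.3, 24.4 and 27.2 CPM. The groups did not overlap in either tissue, with effects of 0.71 ± 0.12 and -0.68 ± 0.13 that differed by -1.39 ± 0.18 (FDR 3.45e-05). *Cd80*, which binds the same receptors, thus had effects of the opposite sign in both tissues. Markers of myeloid cells, which also express *Cd86*, summed to 15.4 to 46.7 CPM in thymic WT, 14.3 to 29.7 CPM in thymic KO, 20.5 to 26.4 CPM in splenic WT and 24.5 to 32.1 CPM in splenic KO libraries, and these ranges overlapped in both tissues.

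Also among the 18 were *Bcl2l11*, which encodes the proapoptotic protein BIM, with 0.42 ± 0.05 in thymic and -0.34 ± 0.06 in splenic Tregs, and *Foxp1*, a factor of quiescent T cells, with 0.34 ± 0.05 and -0.35 ± 0.06. *Arhgap20*, a GTPase-activating protein, was at 242 to 371 CPM in thymic WT, 429 to 692 CPM in thymic KO, 21.7 to 30.3 CPM in splenic WT and 11.8 to 17.4 CPM in splenic KO mice. Its difference of -1.54 ± 0.23 cannot be told apart from that of *Arhgap20os*, which lies on the opposite strand, since the use of strand in counting is not given in the sources used here. *Rell1*, a member of the RELT family of TNF receptors, rose from 5.81–9.74 to 13.3–21.3 CPM in the thymus. The spleen had 6.66, 10.3, 17.5 and 20.3 CPM in WT mice and 6.34 to 6.89 CPM in KO mice, so that the splenic groups overlapped at their edge. Of the 18 symbols, 7 named a predicted or RIKEN transcript without a known function.

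Of 19 resting Treg genes 3 had the lower effect in the spleen and none the higher, and 16 did not pass the test. The 3 are 15.8% of the list, against 6.98% of all genes. *Bach2*, a repressor that keeps Tregs quiescent, had effects of -0.05 ± 0.07 in thymic and -0.66 ± 0.08 in splenic Tregs. *Ccr7*, the lymph node homing receptor, had -0.03 ± 0.08 and -0.61 ± 0.09, and *Actn1*, an actin crosslinker, had -0.02 ± 0.08 and -0.52 ± 0.09. Without Y2 and Y4 the *Actn1* difference of -0.50 became -0.43 and lost its call (FDR 0.015). The list had a median of -0.03 in the thymus, -0.25 in the spleen and -0.24 for the difference. In the spleen alone 8 of the 19 fell and 1 rose, against 620 and 1030 of all 18686 genes. *Acvr1c*, the activin receptor ALK7, fell in the spleen from 1.9, 2.78, 2.79 and 2.84 CPM in WT mice to 0.253, 0.266, 0.317 and 0.342 CPM in KO mice. In the thymus it was at 2.47 to 5.34 CPM in WT and 0.945 to 4.61 CPM in KO mice, and these ranges overlapped through Y2 and Y4. The difference was -2.44 ± 0.55, or -1.63 without them.

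Only 12 of the 1305 genes changed in the same direction in both tissues by different amounts. *Socs2*, a STAT5-induced inhibitor of cytokine signaling, was at 19, 19, 22, 24.7 and 26.7 CPM in thymic WT mice and at 0.473, 1.05, 1.47, 3.29 and 5.44 CPM in thymic KO mice. In the spleen it was at 32.5, 35, 36.7 and 43.7 CPM in WT mice and at 16.8, 17, 19.7 and 21.3 CPM in KO mice. Both tissues lost the transcript in every KO mouse, and the thymus lost more of it. The effects were -3.21 ± 0.32 and -0.98 ± 0.29 (difference 2.22 ± 0.43, FDR 0.00163), and the difference was 3.49 without Y2 and Y4.

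*Rragd*, a small GTPase that signals amino acids to mTORC1, was at 14.4 to 19.5 CPM in thymic WT and 2.95 to 4.38 CPM in thymic KO mice. Splenic WT mice had 26.9 to 36.3 CPM and splenic KO mice 15.7 to 21.7 CPM. The effects of -2.41 ± 0.13 and -0.74 ± 0.13 differed by 1.67 ± 0.18 (FDR 5.32e-06). *Socs1*, related to *Socs2*, fell by 0.93 ± 0.07 and 0.45 ± 0.07 on the log2 scale in thymus and spleen, and *Tnf* by 1.30 ± 0.13 and 0.41 ± 0.12. *Lta*, which encodes lymphotoxin alpha and lies beside *Tnf*, had the larger decrease in the spleen, with -0.67 ± 0.08 and -1.15 ± 0.09. Its difference of -0.48 ± 0.12 had an FDR of 0.00963, just inside the threshold, and 0.022 without Y2 and Y4, where the call was lost.

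Equal effects were defined as a call in both tissues in the same direction, with the 95% interval of the difference within 1.5-fold either way. This held for 59 genes (0.316% of those tested), 48 lower and 11 higher in CD25 KO Tregs, and for 24 to 34 when R2, Y3, R5, Y1 or R3 was left out singly. The values below chose the genes and are therefore a description. *Myc* (chr15:61985391-61990374), a transcription factor of cell growth that IL-2 induces in T cells, ranged from 117 to 134 CPM in the 5 thymic WT mice and stood at 48, 57.1, 62.2, 70.1 and 78.3 CPM in thymic KO mice. In the spleen it was at 95.9, 99.6, 109 and 112 CPM in WT mice and at 46.8, 50.8, 51.1 and 55.9 CPM in KO mice. No KO mouse reached any WT mouse, and the log2 fold changes were -0.98 ± 0.09 and -1.02 ± 0.10, with a 95% interval of the difference of -0.34 to 0.24.

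*Cish* (chr9:107296026-107302784), a STAT5 target that restrains cytokine and antigen receptor signals, was at 175, 198, 207, 211 and 235 CPM in thymic WT mice and at 99.6, 105, 106, 118 and 132 CPM in thymic KO mice. Splenic WT mice had 190, 199, 207 and 247 CPM and splenic KO mice 115, 125.2, 133 and 154 CPM. The levels themselves were close in both tissues, and the effects of -0.87 ± 0.09 and -0.68 ± 0.10 differed by 0.19 (95% interval -0.10 to 0.48).

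*Foxp3* (chrX:7573644-7595245), the lineage-defining factor of Tregs, was at 400, 470, 524, 543 and 578 CPM in thymic WT mice and at 270, 281, 287, 313 and 336 CPM in thymic KO mice. In the spleen the WT mice had 322, 326, 327 and 345 CPM and the KO mice 204, 227, 235 and 239 CPM. The decrease of 0.76 ± 0.08 in thymic and 0.55 ± 0.09 in splenic Tregs (log2) gave a difference with a 95% interval of -0.04 to 0.47. The range of thymic KO mice thus overlapped that of splenic WT mice. The noncoding RNA *Flicr*, which lies within the *Foxp3* locus and whose reads may not be fully separable from it, had -0.56 ± 0.10 and -0.69 ± 0.11. In the thymus the WT and KO mice differed in the *Foxp3* reporter allele as well as in CD25.

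*Gpr83*, a G protein-coupled receptor of Tregs, had a decrease close to that of *Myc*. Thymic WT mice had 269 ± 11.5 CPM and thymic KO mice 129 ± 37 CPM (SD, n = 5 each), with Y2 and Y4 at 182 and 147 CPM. Splenic WT mice had 101 ± 5.74 CPM and splenic KO mice 53 ± 6.26 CPM (n = 4 each). The difference of 0.13 ± 0.20 became 0.42 (FDR 0.0225) without Y2 and Y4. *Slc37a2*, a phosphate-linked sugar transporter, had the largest equal increase, with 12 ± 1.5 CPM in thymic KO against 6.67 ± 0.81 CPM in thymic WT mice, and 16.9 ± 1.38 against 9 ± 1.32 CPM in splenic mice. *Sh3gl3*, an endophilin of membrane trafficking, also rose equally (0.69 ± 0.10 and 0.64 ± 0.11), as did *Tox*, a nuclear factor of T cell development (0.37 ± 0.06 and 0.31 ± 0.07), and *Cd274* (PD-L1), with 0.30 and 0.31. *Rnf19a*, a ubiquitin ligase, met the definition of equality and was also called different, with a difference of 0.38 (FDR 0.00611).

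**Figure D3:**
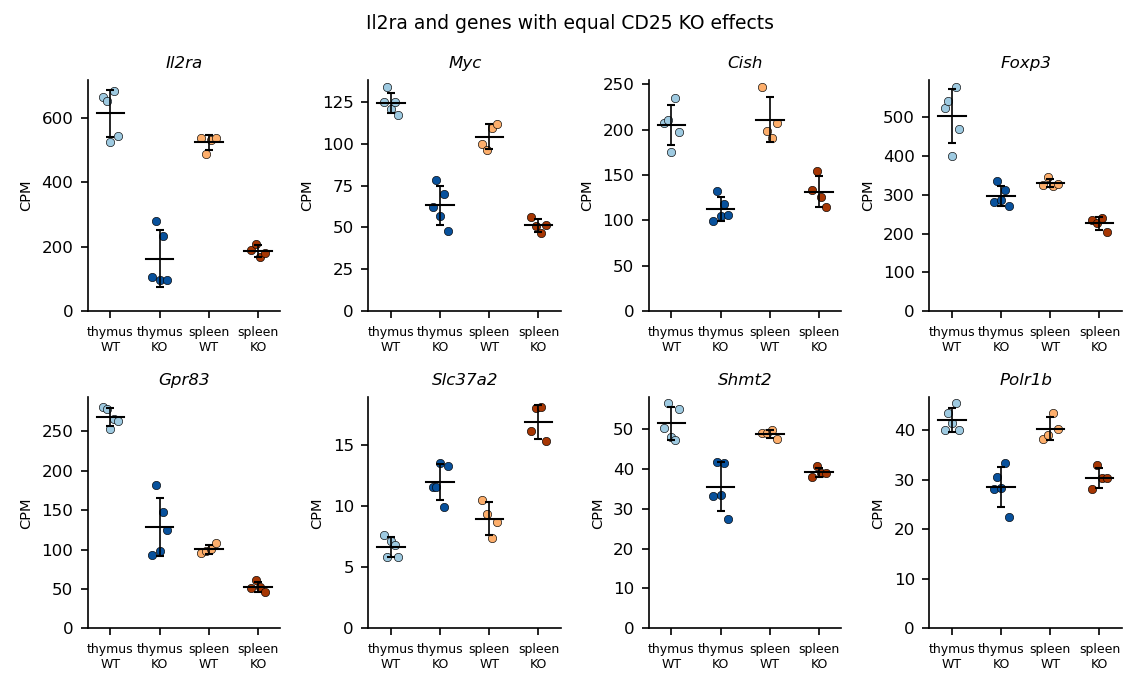
CPM per mouse for genes with equal effects in both tissues, with the group mean and SD. *Myc* spans 117–134 CPM in thymic WT, 48–78.3 CPM in thymic KO, 95.9–112 CPM in splenic WT and 46.8–55.9 CPM in splenic KO mice, and *Slc37a2* rose in both.

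By function, the equally lowered genes included growth and biosynthesis genes. *Polr1b*, a subunit of RNA polymerase I, had effects of -0.56 ± 0.08 and -0.40 ± 0.09, and the nucleolar genes *Rrp1b*, *Nop56* and *Noc2l* completed 4 equal genes among 45 of ribosome biogenesis. In that list edgeR, limma-voom and DESeq2 called no difference. Of the 45 genes 10 fell in thymic and 14 in splenic Tregs, against 508 and 620 of all 18686 genes. Small effects in both tissues were found for 34, against 37% of all genes, and the medians were -0.31 and -0.20. *Shmt2*, which feeds serine carbon into mitochondrial folate, had -0.53 ± 0.09 and -0.32 ± 0.10, and *Slc19a1*, the reduced folate carrier, -0.48 and -0.36. *Impdh2*, which makes guanine nucleotides, had -0.41 ± 0.07 and -0.39 ± 0.08. Without Y2 and Y4 the *Shmt2* difference was 0.39 (FDR 0.0078), so that this gene then differed. *Mvd*, a decarboxylase of the mevalonate pathway, had -0.66 ± 0.10 and -0.82 ± 0.11, and *Ccnd2*, the G1 cyclin D2, had -0.48 and -0.60. Signal receptors were represented by *Il4ra*, which had -0.48 and -0.40.

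The promoters of the genes with equal decreases are shown because STAT5 binds TTCNNNGAA, and 250 bases before to 50 after the annotated start were searched for it on both strands. The sequences are from RefSeq (GRCm38.p6), which gave a promoter for 11267 of the 18681 symbols tested. A gene was counted once if the promoter of any of its annotated starts held the motif. The motif was present in 10 of 43 equally lowered genes (23.3%). It was in 9 of 57 genes that fell in the thymus and rose in the spleen (15.8%), and in 934 of all 11267 (8.29%). Among all genes called different it was in 10.5% of those with the higher and 11% of those with the lower effect in the spleen. It was in none of 8 equally raised genes and of 12 genes that rose in the thymus and fell in the spleen. CACGTG, the E-box that MYC can bind, was in 9.3%, 10.5% and 11.1% of the first 3 sets. TTTGAA, which occurs in promoters of mitotic genes, was in 6.98%, 10.5% and 14.9%, TCACNCCAC, a sterol element, in 2.33%, 1.75% and 1.46%, and CCAAT in 41.9%, 35.1% and 42.2%. A match is not evidence of binding, and these shares are a description. Below, *Cish*, *Polr1b* and *Shmt2* are shown as equally lowered genes that hold the motif, which most of the 43 do not. *Gzmb*, raised in the spleen, holds it, and *Tigit*, with opposite effects, does not. Capitals mark TTCNNNGAA, and each strand is that of the gene: *Cish* chr9:107296409-107296708 (+), *Polr1b* chr2:129100746-129101045 (+), *Shmt2* chr10:127522395-127522694 (-), *Gzmb* chr14:56262285-56262584 (-) and *Tigit* chr16:43664135-43664434 (-).
Cish: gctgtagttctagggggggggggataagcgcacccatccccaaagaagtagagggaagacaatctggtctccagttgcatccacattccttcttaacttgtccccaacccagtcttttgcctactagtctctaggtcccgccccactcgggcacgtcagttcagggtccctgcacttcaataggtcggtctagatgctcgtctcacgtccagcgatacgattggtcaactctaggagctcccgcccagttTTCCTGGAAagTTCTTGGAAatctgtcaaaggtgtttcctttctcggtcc
Polr1b: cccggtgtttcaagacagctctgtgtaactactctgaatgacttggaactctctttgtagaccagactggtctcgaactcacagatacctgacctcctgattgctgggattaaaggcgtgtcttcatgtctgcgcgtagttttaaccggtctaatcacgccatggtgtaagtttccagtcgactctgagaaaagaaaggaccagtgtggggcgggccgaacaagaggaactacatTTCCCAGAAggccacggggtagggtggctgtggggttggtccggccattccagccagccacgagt
Shmt2: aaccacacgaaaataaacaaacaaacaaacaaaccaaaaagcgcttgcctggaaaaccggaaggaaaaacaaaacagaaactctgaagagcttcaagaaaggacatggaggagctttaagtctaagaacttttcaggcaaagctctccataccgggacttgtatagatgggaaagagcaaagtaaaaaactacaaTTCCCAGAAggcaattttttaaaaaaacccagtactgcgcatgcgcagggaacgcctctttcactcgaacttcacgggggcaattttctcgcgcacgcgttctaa
Gzmb: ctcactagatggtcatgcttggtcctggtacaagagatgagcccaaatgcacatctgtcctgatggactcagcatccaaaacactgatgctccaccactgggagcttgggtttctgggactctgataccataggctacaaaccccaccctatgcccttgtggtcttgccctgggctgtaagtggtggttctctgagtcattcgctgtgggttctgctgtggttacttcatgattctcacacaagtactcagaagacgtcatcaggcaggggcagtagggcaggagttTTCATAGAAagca
Tigit: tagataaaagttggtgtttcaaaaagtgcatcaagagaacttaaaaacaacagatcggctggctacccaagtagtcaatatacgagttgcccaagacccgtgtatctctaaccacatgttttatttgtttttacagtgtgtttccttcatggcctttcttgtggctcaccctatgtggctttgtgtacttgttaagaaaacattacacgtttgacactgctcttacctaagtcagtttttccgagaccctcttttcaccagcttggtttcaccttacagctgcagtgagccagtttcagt

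In *Cish* both matches lay within the first bases after the start, in *Polr1b* and *Shmt2* the match lay 15 and 55 bases before it, and in *Gzmb* it lay 37 bases after it. *Gzmb*, with a difference of 4.70, and *Cish*, with equal effects, thus both held the motif, and *Tigit*, with a difference of 3.86, did not.

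The IL-2 signaling list itself was divided between both classes. Of its 20 genes, 6 had the higher effect in the spleen and 2 the lower (40%, against 6.98% of all genes), and 3 (*Myc*, *Cish* and *Il4ra*) had equal effects. The 6 were *Socs2*, *Pim1*, *Socs3*, *Il2rb*, *Bcl6* and *Socs1*, and the 2 were *Bcl2* and *Lta*. *Il2rb*, the receptor chain that CD25 partners, had -0.81 in thymic and -0.19 in splenic Tregs, and *Bcl6*, a repressor that STAT5 opposes, had 0.22 and 0.83. The median was -0.39 in the thymus, -0.12 in the spleen and 0.19 for the difference. In each tissue 9 of the 20 fell, against 508 of all 18686 genes in the thymus and 620 in the spleen.

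Of 22 glycolysis genes 10 had the higher effect in the spleen and none the lower (45.5%, against 6.98% of all genes). The medians were -0.34 in thymic and 0.09 in splenic Tregs. *Tpi1*, triosephosphate isomerase, and *Gapdh* fell in the thymus and rose in the spleen, with -0.70 ± 0.12 and 0.41 ± 0.13 for *Tpi1* and -0.39 and 0.25 for *Gapdh*. *Pgam1*, phosphoglycerate mutase, differed by 0.97 ± 0.14, while *Eno1*, the next enzyme of the pathway, fell by 0.52 ± 0.07 and 0.22 ± 0.07 on the log2 scale. The *Eno1* difference of 0.30 (95% interval 0.096 to 0.51, FDR 0.041) lay within the 1.5-fold margin although its interval excluded 0, and it was 0.35 (FDR 0.0195) without Y2 and Y4. Of 76 nuclear respiratory chain genes 9 had the higher effect in the spleen (11.8%, against 4.5% of all genes), 22 by DESeq2, 4 without a filter on low counts and 2 with upper-quartile scaling. The count was also 2 when R3, Y1, Y3, B16, C126 or C128 was left out, and it was 16 without Y2 and Y4. The list had medians of -0.21 and 0.04, and 59 of its genes had small effects in both tissues, against 37% of all genes. Of 34 sterol and fatty acid synthesis genes 17 fell in the spleen and 1 in the thymus. Of all 18686 genes 620 and 508 did. A difference was called for 2 of the list (*Ebp* above and *Sc5d* below), 5.88% against 6.98% of all genes. The medians were -0.25 in both tissues. Without Y2 and Y4 *Sc5d* lost its call (-0.49, FDR 0.0102), and the list's median difference of -0.12 became 0.03. In that fit 4 genes of the list had the higher effect in the spleen and 0 the lower. Most genes of this list that passed in the spleen are therefore not shown to differ from the thymus. Of 30 genes of amino acid and one-carbon metabolism 1 was called, *Psat1* of serine synthesis, with -0.74 ± 0.15 and 0.48 ± 0.16, a share of 3.33% that is also below that of all genes. Without Y2 and Y4 15 of these 30 were called, and without Y2 alone 4.

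Chaperone genes fell in the thymus, 14 of 26, and none fell in the spleen, against 508 and 620 of all 18686 genes. The shares called different were 30.8% of chaperone, 25% of T cell receptor-induced and 33.3% of cytokine genes, against 6.98% of all genes. The difference was called for 8, of which 7 were higher in the spleen, such as *Bag3*, a cochaperone of HSP70 (1.40 ± 0.27), and *Calr*, calreticulin (-0.37 ± 0.06 and 0.25 ± 0.07). Genes induced by T cell receptor signals had 8 called of 32, all with the higher effect in the spleen, including *Fosl2*, *Nr4a2*, *Egr1*, *Egr2*, *Nfatc1* and *Cd83*. *Fosl2*, an AP-1 subunit, had -0.03 ± 0.09 and 0.88 ± 0.10. Of 21 cytokine genes 6 had the higher and 1 the lower effect in the spleen, with medians of -0.61 and 0.71. *Csf1*, the macrophage growth factor, had -0.81 ± 0.14 and 0.82 ± 0.11, with a thymic FDR of 0.0102, just outside the threshold. Leaving out 1 mouse at a time left 36 to 39 effector, 7 to 11 glycolysis, 5 to 9 chaperone, 10 to 12 chemokine receptor and homing, 6 to 8 T cell receptor-induced, 5 or 6 cell death and 4 to 6 cytokine genes with the higher effect in the spleen. The IL-2 signaling list had 4 to 6. Without Y2 and Y4 the chaperone count was 12, the cytokine count 9, the cell death count 8 and the IL-2 signaling count 7.

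**Figure D4:**
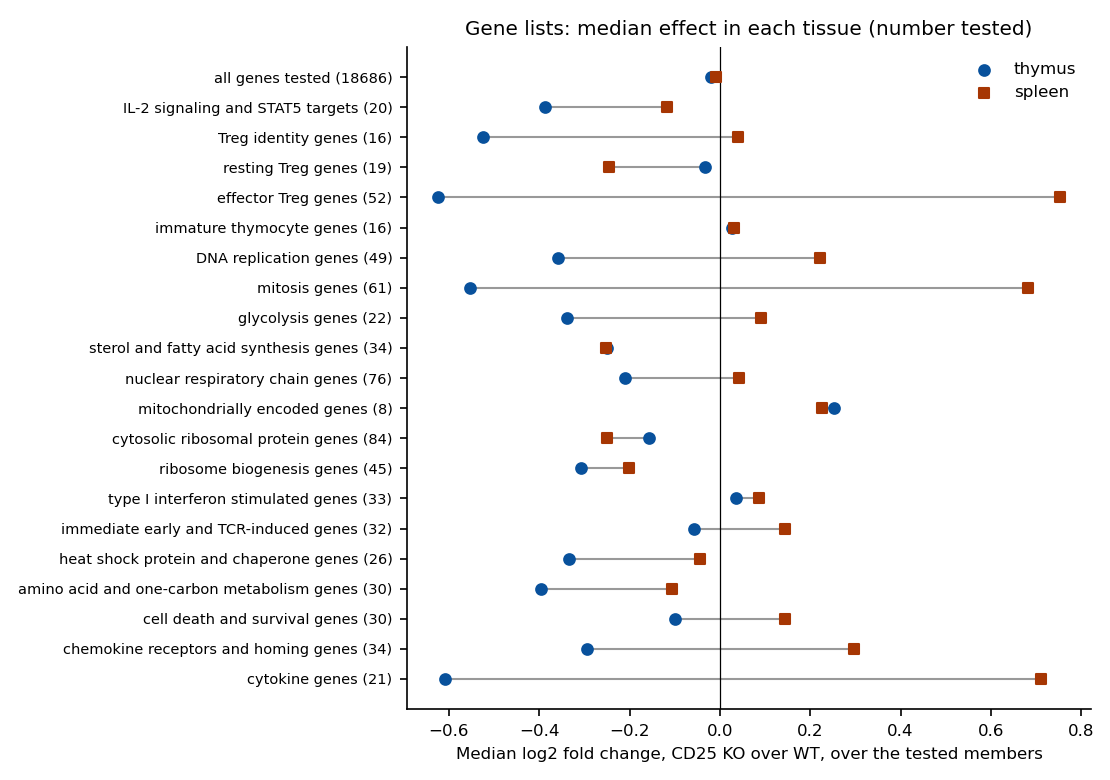
Median log2 fold change of CD25 KO over WT in thymus and spleen for each gene list and for all genes tested. Effector Treg genes (-0.62 and 0.75) and mitosis genes (-0.55 and 0.68) lie on opposite sides of 0, and ribosome biogenesis genes (-0.31 and -0.20) on the same side.

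Mitosis genes had medians as far apart as those of effector genes, but edgeR called no single gene different. Of 61 genes 39 rose in the spleen and 1 rose in the thymus, the median effects were -0.55 and 0.68, and the median difference was 1.31. The smallest FDR of a difference was 0.0107, and 44 of the 61 had an unadjusted p below 0.05. Limma-voom and DESeq2 each called 1 gene higher and 1 lower, and edgeR called 6 higher without Y2 alone. The spread among thymic KO mice was wide, with a median SD of 1.11 (log2) against 0.218 among splenic KO mice. The summed level was 2619, 2765, 2964, 3043 and 4329 CPM in thymic WT mice and 2380, 2388, 2792, 3724 and 4348 CPM in thymic KO mice, the highest 2 being Y4 and Y2. The thymic groups therefore overlapped. Without Y2 and Y4, which were singled out after their values were seen, 55 genes had a higher and 1 a lower effect in the spleen, and the median difference was 2.45.

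DNA replication genes also differed in these mice. Their summed level was 1785 to 2255 CPM in thymic WT mice, 1037, 1119 and 1166 CPM in Y5, Y1 and Y3, and 2050 and 2146 CPM in Y4 and Y2. Y2 and Y4 thus lay within the WT range and the other 3 below it. Of 49 genes 12 rose in the spleen, against 1030 of all 18686 genes. A difference was called for 2, *Mcm6*, a subunit of the replicative helicase (1.04 ± 0.24), and *Rpa1*, which binds single-stranded DNA (0.57 ± 0.13). The 2 called are 4.08% of the list, below the 6.98% of all genes, and none was called when R2, R3, R5, Y1, Y3 or any splenic mouse but C125 was left out. Without Y2 9 were called, without Y4 5 and without C125 1. The median difference was 0.57, and without both mice it was 0.92 with 35 genes called.

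**Figure D5:**
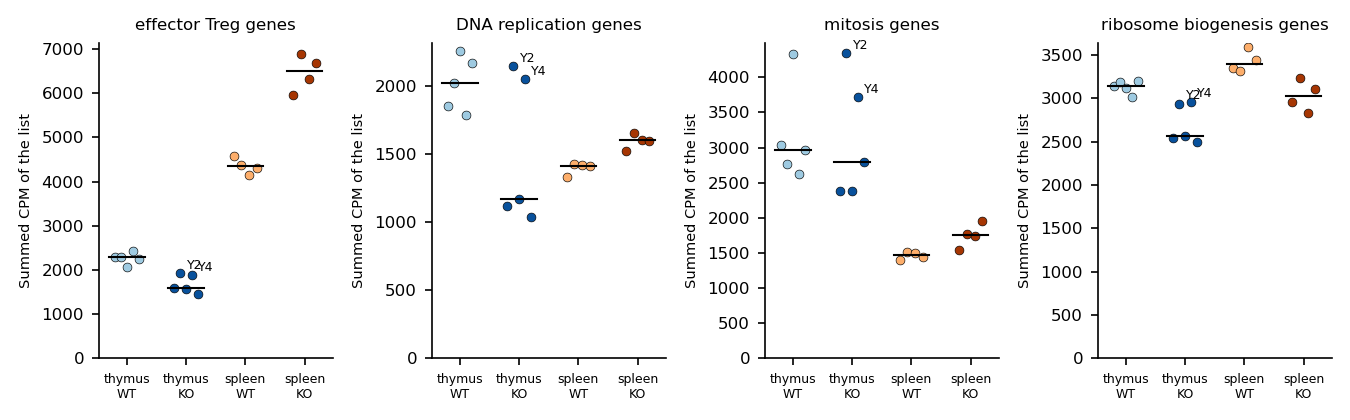
Summed CPM per mouse for gene lists, with the group median as a bar. Thymic KO mice Y2 and Y4 lie apart from the other 3 thymic KO mice in the DNA replication genes (2146 and 2050 against 1037 to 1166 CPM).

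Small effects in both tissues, with all intervals within 1.5-fold, were found for 6918 genes (37%). Of these 501 passed in a tissue on its own. Cytosolic ribosomal protein genes were nearly all of this kind, 81 of 84, with medians of -0.16 and -0.25. Even so, 31 of the 84 fell in the spleen, against 620 of all 18686 genes. *Rpl4* and *Rplp0* had -0.17 ± 0.07 and -0.13 ± 0.07 in the thymus and -0.30 ± 0.07 and -0.28 ± 0.08 in the spleen. The transcription factor *Ets1* had 0.06 ± 0.06 and 0.12 ± 0.07. The mitochondrially encoded *mt-Co1* and *mt-Cytb*, subunits of respiratory complexes, differed by 0.04 ± 0.18 and -0.01 ± 0.19. They were the 2 of 8 tested mitochondrial genes with small effects, and the splenic KO mice stood apart from each other. *mt-Co1* was at 3273 and 3584 CPM in C125 and C127 and at 5667 and 5431 CPM in C126 and C128, against 3801 to 4370 CPM in splenic WT mice. The list summed to 6565 and 7101 CPM in the first pair and to 11740 and 11290 CPM in the second. None of 16 immature thymocyte genes was called different by edgeR, limma-voom or DESeq2, and 1 had an unadjusted p below 0.05 by edgeR. Their medians were 0.03 in both tissues.

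The genes on both sides of the difference also differed in kind. Of the 840 genes with the higher effect in the spleen 95.5% were protein coding, compared with 70.5% of the 465 and 70.1% of all tested. Predicted genes and RIKEN transcripts were 3.93% of the 840, 31.2% of the 465 and 27.6% of all tested. The median GC content of their exons was 51.0% and 45.4%, against 49.0% for all genes and 52.2% for the equal genes. The Spearman correlation between GC content and the log2 fold change was -0.37 in the thymus, -0.16 in the spleen and 0.20 for the difference, across genes. With a GC correction 1418 genes were called, 1114 of them among the 1305. Opposite genes then numbered 95, with 71 of the 98 kept, and equal genes 52, with 34 of the 59 kept. Genes called in the thymus fell from 1047 to 791.

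Some called genes had few or no reads in a whole group. At most 3 counts in every library were found for 28 called genes in thymic KO mice, 8 in thymic WT, 4 in splenic WT and 2 in splenic KO mice. *Hist1h4m*, a replication-dependent histone H4 gene, had at most 2 counts in each thymic WT mouse and 26.2 CPM on average in thymic KO mice, at least 195-fold higher. It had 10.1 CPM in splenic WT and 15.7 CPM in splenic KO mice. Reads of near-identical histone genes may be split among them, so this value is uncertain. Selected after their values were seen, *mt-Nd3* was likewise listed at 0 in all thymic WT mice against 2.29 CPM in thymic KO mice, while *Gm26825* had 100 CPM in thymic WT mice and at most 0.2 CPM on average in each of the other groups. *Ccdc22*, whose annotated end overlaps that of *Foxp3* on chromosome X, had 2.58 CPM in thymic WT mice and at most 0.0269 CPM on average elsewhere. In these 4 genes thymic WT mice differed from the other 3 groups, and the part of mouse model or reporter allele was not tested.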

How the data were processed

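RNA-seq was performed on FACS-purified Tregs of 18 mice, with ribosomal RNA depleted libraries. The authors aligned reads to GRCm38 with STAR 2.5.0b, counted them per GENCODE M13 gene with featureCounts 1.5.0 and deposited raw counts, with no normalization. Symbols and coordinates were taken from GENCODE M21, which named 50376 of 50600 genes. The use of strand in counting is not given in the sources used here.

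Counts were filtered by filterByExpr, scaled by TMM and tested by the quasi-likelihood test of edgeR 4.0.16 (R 4.3.3) with Benjamini-Hochberg adjustment at FDR < 0.01. One fit of all 18 samples with 4 group means gave the contrast, both tissue effects, SE and 95% intervals, and each tissue was also fitted alone to sort genes into patterns. An edgeR fit shares 1 spread per gene among groups. Scripts were tested on simulated data. A fold against a group with at most 3 counts in every library is a bound against 3 counts per library. Intervals and floors cover counting error only where no replicate spread enters.

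Genes were named by rule: the 12 largest differences each way, up to 5 per pattern and direction, the 12 largest equal effects, and up to 4 called and 2 equal genes per list, at a mean log2 CPM of at least 1. Predicted genes and receptor segments were passed over (3 above the named positive and 19 above the named negative differences). Other genes with values, such as *Cd80*, *Runx3*, *Prdm1*, *Icos*, *Fgl2*, *S100a4*, *Gapdh*, *Socs1*, *Il2rb*, *Bcl6*, *Slc19a1* and *Ccnd2*, were chosen from their class after their values were seen. A few items are not reported here. Members and lists were chosen with earlier results of these data known. Replicates within a group correlated at 0.9725 to 0.9935, and no columns were identical. Alternatives were RLE and upper-quartile scaling, DESeq2 1.42.0, limma-voom (limma 3.58.1), other filters, thresholds and margins, a GC correction, a block for the thymic mouse number and leaving out each mouse. A sex term and the fit without Y2 and Y4 were added after the data were seen.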

Additional observations from a re-analysis of the deposited data

Results flagged for a closer look

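The 1305 genes with a called tissue difference, and the 98 with opposite effects among them, are themselves results in which the same contrast differed between groups of mice. Among named genes this held, as the log2 effect in the spleen less that in the thymus, for *Il1rl1* (5.35), *Gzmb* (4.70), *Gpr15* (4.26), *Tigit* (3.86), *Socs2* (2.22) and *Rragd* (1.67). It also held for *Ifi208* (-3.13), *Acvr1c* (-2.44), *Rell1* (-2.36), *Arhgap20* (-1.54) and *Cd86* (-1.39). For *Ccr3* (8.52), *Klrg1* (7.90), *Ces2c* (5.71), *Bace2* (5.53) and *Hist1h4m* (-7.96) a thymic group had at most 2 counts in any library, so these fitted values depend on the prior count and are not bounds. The bounds for the thymic KO group were at least 4.14-fold lower for *Ccr3*, 14.3-fold for *Klrg1*, 1.02-fold for *Ces2c* and 2.65-fold for *Bace2*.

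Of 86 sets of 4 or 5 mice examined for a mouse far from the others, 9 held one. The limit used flags about 1 in 20 sets of normally distributed values. CPM of genes picked for large effects need not be so distributed, so an excess over that rate is not shown. The 9 were *Il2ra* in splenic WT mouse B17 (488 CPM), *Klrg1* in thymic KO mouse Y2 (0.0461 CPM, 1 read), *Ces2c* in splenic KO mouse C126 (26.9 CPM) and *Il1rl1* in thymic WT mouse R4 (14.7 CPM). The *Klrg1* set, with no read in the other mice, was bound to be flagged. The others were *Ifi208* in splenic KO mouse C127 (105 CPM), *Acvr1c* in splenic WT mouse B16 (1.9 CPM), *Rell1* and *Arhgap20* in splenic KO mouse C126 (6.89 and 11.8 CPM) and *Rragd* in thymic KO mouse Y2 (4.38 CPM). C126 was named in 3 of the 9 and Y2 in 2.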

How the results depend on the processing

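Of 3275 alternative values for the differences of 110 named genes, 2978 kept direction and side of the threshold, 294 lost the call, 3 gained it and none reversed. List medians, with that of all genes, stayed within a limit in 614 of 630 cases. The limit was the spread of a list's median among replicates, and a fixed value for all genes. It is wider where mice of a group differ more, so staying within it is not evidence of stability. The number of genes called different (1305 as reported; 840 higher and 465 lower in the spleen) was 2188 (1368 and 820) by DESeq2, 3149 (1835 and 1314) at FDR < 0.05, 500 (365 and 135) by glmTreat against 1.2-fold, and 2307 (1537 and 770) without Y2 and Y4, an alternative chosen after seeing the data. For the opposite genes (98 as reported; 80 lower in the thymus and higher in the spleen, 18 the reverse) these 4 settings gave 246 (190 and 56), 388 (284 and 104), 21 (21 and 0) and 296 (266 and 30), and no filter on low counts gave 166 (1.3e+02, rounded, and 39). Equal genes numbered 177, 325, 7 and 94 in the 4 settings, 92 without a filter and 23 with the narrower margin for equal effects. Small effects numbered 11228 with a margin of 2-fold and 2055 with the narrower one. Genes called in the thymus numbered 2763 by DESeq2, 3951 at FDR < 0.05, 1.3e+02 (rounded) by glmTreat, 636 with a sex term and 2008 without Y2 and Y4, and those called in the spleen 3001 at FDR < 0.05 and 578 by glmTreat. Limma-voom replaced only the joint fit and kept the edgeR calls of each tissue. The cause of these shifts was not tested, except that a looser or stricter threshold calls more or fewer genes by construction.

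Deviations of same-numbered thymic mice had correlations of 0.154, 0.0805, -0.0374, -0.208 and -0.0263. These values do not show a pairing and cannot exclude one, so whether the numbers pair the mice is not known. With the replicate block 1335 genes were called different, 1159 of them among the 1305, but 209 in the thymus, 36 opposite (34 and 2) and 17 equal.

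Leaving out each mouse gave 817 (without C126) to 1489 (without Y2) genes called different, 535 to 984 higher and 282 to 569 lower in the spleen. Opposite genes ranged from 48 (without R2) to 108, of which 44 to 89 were lower in the thymus and higher in the spleen and 4 to 20 the reverse. Equal genes ranged from 24 (without R2) to 64, small effects from 6500 to 7279, genes called in the thymus from 371 (without Y3) to 1087 and those in the spleen from 1099 (without B18) to 1723. Genes at a few CPM in the thymus, with 3 counts at up to 0.174 CPM per library, limit differences there to bounds. With 4 or 5 mice per group the median SE of a difference was 0.20 on the log2 scale, and the biological coefficient of variation was 14.6% among thymic and 10.9% among splenic libraries.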
